A study of Mus musculus with 2 samples.

Results

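The SWI/SNF, CHD and INO80 chromatin remodelers were described as a set of 39 protein-coding genes among the 21474 protein-coding genes in the gene tables. Members were chosen by symbol alone: Smarc genes, Arid1a, Arid1b, Arid2, Pbrm1, Brd7, Brd9, Actl6a, Actl6b, Dpf1 to Dpf3, Ino80 and its lettered subunits, Ruvbl1, Ruvbl2, Chd1 to Chd3 and Chd5 to Chd9. They lay on 19 chromosomes and formed 5 groups by role: 11 SWI/SNF core genes, 9 SWI/SNF form-defining genes, 4 ISWI and other SNF2 genes, 8 CHD genes and 7 INO80 genes. The cells were mouse G1E-ER4, an immortalized erythroid line, labelled male and postnatal, null for endogenous Gata1 and bearing a transgene that encodes Gata1 joined to an estrogen receptor domain. All cells had been kept for 7 h in 10 nM 17beta-estradiol, which switches the fusion protein on, and polyA mRNA was sequenced in 2 libraries of this 1 group. The same biosample record stood in the labels of both, so differences between them may be technical. No untreated cells were among the samples, so every value is a level in treated cells of 1 line and no change on treatment could be measured. No test was made, because an exact two-sided sign-flip test on 2 libraries cannot go below a p of 0.5.

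Chromatin remodelers use ATP to slide, evict or exchange nucleosomes and so set which DNA other proteins can reach. SWI/SNF (BAF) complexes hold 1 of a pair of alternative ATPases, a shared core, and subunits that define the canonical BAF, the PBAF or the non-canonical form, many of them encoded by paralogs that replace each other between tissues. ISWI enzymes space nucleosomes, CHD enzymes pair the motor with chromodomains, and INO80 acts with the AAA+ ATPases Ruvbl1 and Ruvbl2. Smarca4 is known as a partner of Gata1 in erythroid gene regulation.

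The main set of remodelers was expressed in both libraries, and within most paralog families 1 gene held most of the level. Levels are given in TPM, each transcript's share of the library scaled to a fixed sum, which are corrected for length and so can be compared between genes. Replicate 1 held 59610963 expected counts and replicate 2 held 44689404. A gene was counted as detected where both libraries gave it a TPM of 1 or more, and 33 of 39 members were detected, against 38.3% of all protein-coding genes. Detection covered 9 of 11 core genes, 9 of 9 form-defining genes, 3 of 4 ISWI and other SNF2 genes, 5 of 8 CHD genes and 7 of 7 INO80 genes. Median TPM over the 39 members was 26.5 in replicate 1 and 26.1 in replicate 2, where the median over all protein-coding genes was 0.03 in each. Among detected genes only, the member median was 46.7 and 41.3 against 21.2 and 19.6 for all detected protein-coding genes. The SD over the libraries was 17.7% of the mean at the median detected member and 17.6% at the median detected protein-coding gene.

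**Figure D1:**
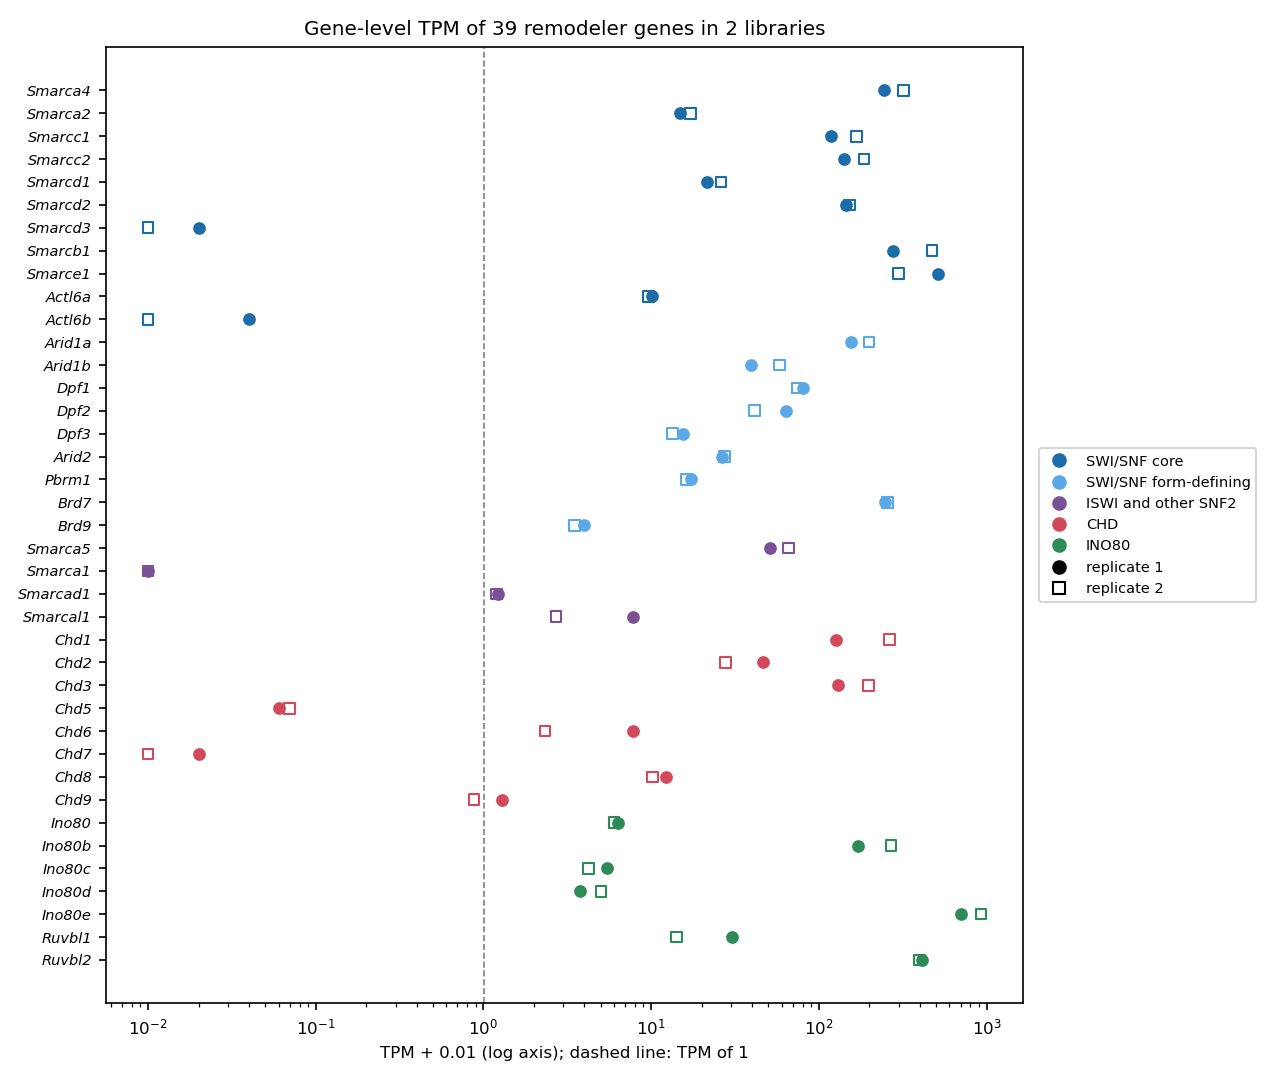
Gene-level TPM plus 0.01 on a log axis for all 39 remodeler genes, coloured by role group, with filled circles for replicate 1, open squares for replicate 2 and a dashed line at a TPM of 1. Smarcd3, Actl6b, Smarca1, Chd5 and Chd7 sit far left of the line in both libraries, Chd9 straddles it, and Ino80e is farthest right.

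A large gene-level TPM did not always rest on transcripts annotated with a complete coding sequence. The authors' transcript tables were therefore split by annotation into transcripts of the protein-coding class with a complete coding sequence, called complete coding here, and all others. The class does not require the longest protein of a gene. It includes short forms such as Arid2-202, of 5 exons and 809 bases, beside Arid2-201, of 21 exons and 8507 bases. In 7 of 33 detected members, under 50% of the TPM lay on complete coding transcripts in both libraries, a share of members close to the background of 24.6% of detected protein-coding genes. By expected counts, which are not divided by length, 6 of 33 members fell under 50%, against a background of 14.7%. The 7 by TPM were Chd1, Chd2, Chd3, Chd8, Brd7, Dpf2 and Smarce1, and in each of them the share by counts was higher than the share by TPM in both libraries. The place of Chd8 in both counts is uncertain, since the model of its main transcript differs between the annotations. The transcript with the most TPM was not of the protein-coding class in both libraries for 7 of 33 members, against 18.0% of detected protein-coding genes. They were Smarca2, Smarce1, Dpf2, Brd7, Chd1, Chd3 and Ino80e. Neither count set the remodelers apart from other genes, but the members concerned include several that look most abundant at gene level.

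**Figure D2:**
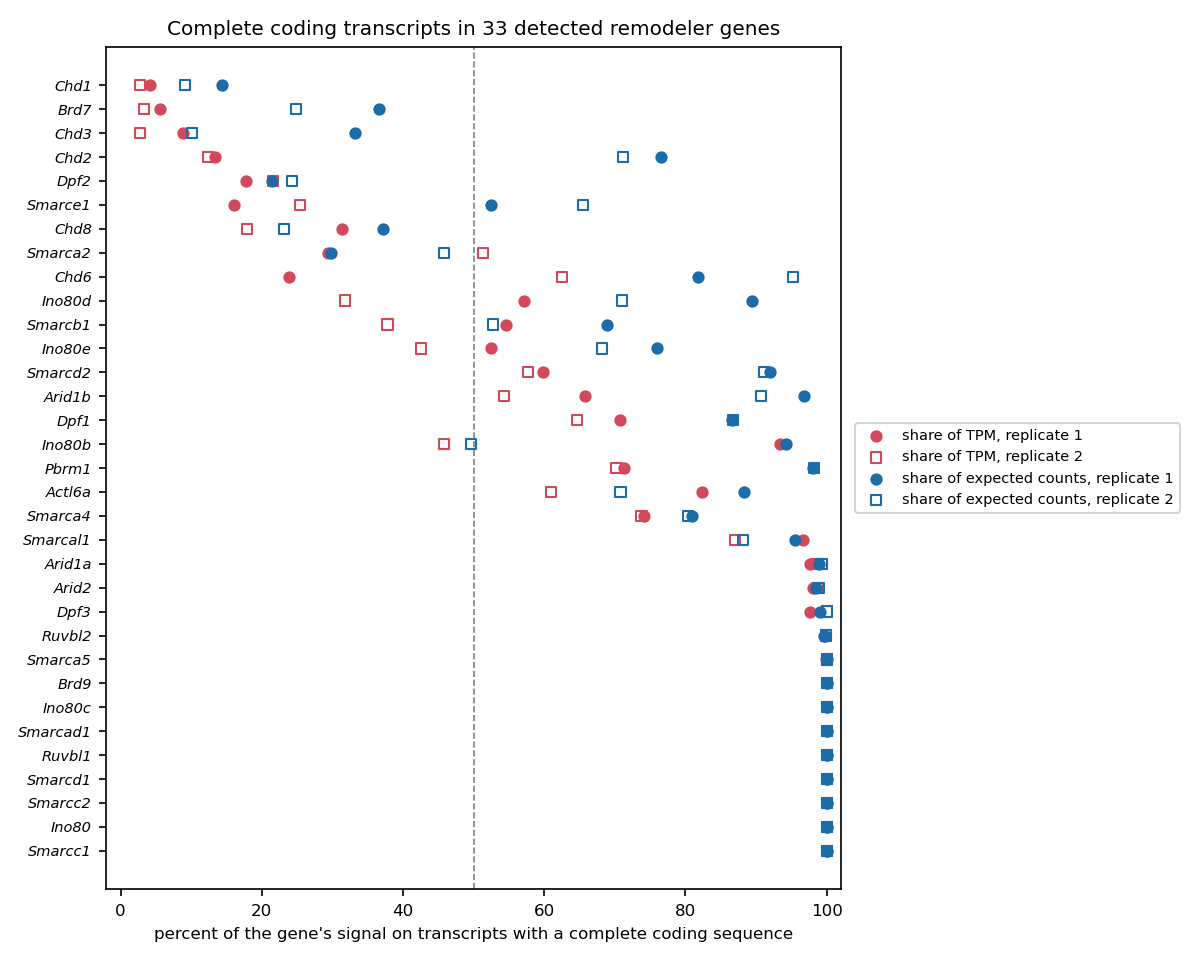
Percent of each detected member's TPM (red) and expected counts (blue) on complete coding transcripts, for 33 genes, with filled circles for replicate 1, open squares for replicate 2 and a dashed line at 50%. Chd1, Brd7 and Chd3 stand at the top with under 10% of TPM in both libraries, and 9 genes at the bottom from Smarca5 to Smarcc1 are near 100%.

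Of the 2 SWI/SNF ATPases, Smarca4 (Brg1) was the main one and Smarca2 (Brm) a minor one. Smarca4 stood at a TPM of 246 in replicate 1 and 319 in replicate 2 (282 ± 51.4, SD, n = 2), and 2.33% of protein-coding genes lay above it. Smarca2 was at 14.8 and 17.1 (15.9 ± 1.63, SD, n = 2). The library difference in Smarca4 was small beside the gap to Smarca2, which was 16.6-fold and 18.6-fold. Smarca4 held 94.3% and 94.9% of the pair's TPM. On complete coding transcripts the gap was wider, at 42.0-fold and 26.8-fold. The size of that gap is uncertain, because it rests mainly on Smarca2-216, at 3.26 and 7.59. The later annotation gives Smarca2-216 a length of 5703 bases, but its effective length in replicate 1 was 4422. For Smarca2-202, of 5913 bases, it was 5757. The class of Smarca2-216 may thus belong to a different model from the one quantified. Most of Smarca2's counts, 68.6% and 54.2%, were assigned to Smarca2-202, which is annotated as a target of nonsense-mediated decay, the pathway that degrades mRNAs with early stop codons.

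The scaffold genes Smarcc1 and Smarcc2, whose proteins form the base on which the core assembles, were expressed at nearly equal levels. Smarcc1 was at a TPM of 119 and 167 and Smarcc2 at 142 and 186. Smarcc2 was higher in both libraries, by 1.20-fold and 1.11-fold. The order depends on length scaling, since by expected counts alone Smarcc1 held 49.1% and 50.9% of the pair. All of the level of both genes lay on complete coding transcripts. For Smarcc2 that class is uncertain. Its main transcript, Smarcc2-203, has 4032 bases in the later annotation but was quantified with an effective length of 4778 in replicate 1.

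Among the Smarcd genes, which encode alternative subunits that link SWI/SNF to transcription factors, Smarcd2 led. Smarcd2, known for its part in granulocyte development, was at a TPM of 146 and 153, and Smarcd1 was at 21.6 and 26.1. Smarcd2 was 6.75-fold and 5.85-fold above Smarcd1, or 4.04-fold and 3.37-fold on complete coding transcripts. Smarcd3, the form known from heart and muscle, had 1 and 0 expected counts. Against the level that 3 counts would give in replicate 2, Smarcd2 was at least 1805-fold higher and Smarcd1 at least 309-fold higher. Against the upper bound of the interval that the authors' tables give for the TPM of Smarcd3, 0.748, the folds were 204 and 34.9. Exons of Smarcd3 overlap those of Chpf2 on the opposite strand over 2466 bases, and Chpf2 itself had 3147 and 2572 counts. So the near absence of Smarcd3 counts stood beside an expressed antisense neighbour.

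Among genes of subunits shared by all canonical SWI/SNF complexes, Smarcb1 and Smarce1 were abundant at gene level. Smarcb1, the subunit that grips the nucleosome's acidic patch, was at a TPM of 277 and 472 (375 ± 138, SD, n = 2). Smarce1, which carries an HMG domain, was at 514 and 300 (407 ± 151, SD, n = 2). The order of these genes differed between the libraries, so they were not separable by level. On complete coding transcripts, by contrast, Smarcb1 was at 151 and 179 and Smarce1 at 82.6 and 76.1. In Smarce1 the difference lay with Smarce1-206, a processed transcript of 2 exons and 610 bases, which took 69.8% and 58.4% of the TPM but 37.4% and 25.2% of the counts. A processed pseudogene, Smarce1-ps1, had 3.09 and 5.09 counts, and Smarce1 was, with Smarca5, Chd2 and Ruvbl1, among 4 members with fractional counts at gene level. Actl6a, the actin-like subunit of proliferating cells, was at 10.1 and 9.62. Its neuronal counterpart Actl6b had 2 and 0 counts, which put Actl6a at least 74.1-fold higher in replicate 2, or 11.5-fold above the upper bound of the authors' interval for Actl6b.

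The genes that define the BAF form showed a leading Arid1 gene and, at complete coding level, a leading Dpf gene. Arid1a, the largest BAF-specific subunit, was at a TPM of 155 and 199 (177 ± 30.7, SD, n = 2), and its paralog Arid1b was at 39.2 and 58.1. Arid1a was 3.97-fold and 3.42-fold higher, and 5.88-fold and 6.20-fold higher on complete coding transcripts. It held 79.9% and 77.4% of the pair's gene TPM.

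Dpf proteins carry paired PHD fingers that read acetylated histone tails, and Dpf2 is regarded as the widely expressed form while Dpf1 is best known from neurons. Here Dpf1 was at a TPM of 80.1 and 74.4, Dpf2 at 63.6 and 41.3, and Dpf3 at 15.5 and 13.4. By gene TPM, Dpf1 exceeded Dpf2 by 1.26-fold and 1.80-fold, a gap of the size of the spread in Dpf2 itself. The order depends on length scaling, since by expected counts Dpf1 held 43.9% and 47.5% of the family and Dpf2 48.5% and 42.9%. Most Dpf2 signal was assigned to Dpf2-201, annotated for nonsense-mediated decay, with 80.2% and 76.9% of the TPM and 77.9% and 75.2% of the counts. Dpf2 was at 11.3 and 8.92 on complete coding transcripts, below Dpf3 at 15.1 and 13.4 and well below Dpf1 at 56.7 and 48.0. The leading complete coding transcript of Dpf1 was not the same in both libraries: Dpf1-201 led replicate 1 and Dpf1-202 replicate 2. Of 6 neuron markers, Tubb3 was the 1 detected, at 1.53 and 1.48, and Snap25, Rbfox3 and Stmn2 were at 0 in both libraries.

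PBAF and the non-canonical form were represented by all 4 of their defining genes. Arid2, the DNA-binding subunit of PBAF, was at a TPM of 26.5 and 27.5. Pbrm1, the PBAF subunit with a row of bromodomains, was at 17.2 and 16.2. By gene TPM, Arid2 and Pbrm1 each had nearly the same value in both libraries, and Pbrm1 was close to the level of Smarca2. Brd7, the bromodomain protein of PBAF, was at 248 and 257 (253 ± 6.36, SD, n = 2), and its paralog Brd9, which marks the non-canonical form, was at 3.97 and 3.48. The gene-level gap was 62.5-fold and 73.9-fold, but on complete coding transcripts Brd7 was at 13.8 and 8.65 and the gap was 3.48-fold and 2.49-fold.

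The Brd7 level rested on a short transcript, shown here because only a few of its bases are not also in the full-length mRNA. Brd7-203 is a processed transcript of 4 exons and 511 bases on chromosome 8, minus strand, and took 94.4% and 96.6% of the gene's TPM and 63.5% and 75.1% of its counts. Its last 5 bases, in capitals, lie in no exon of a complete coding Brd7 transcript, at chr8:88357532-88357536 on GRCm38, and the 30 bases before them, in lower case, are exon sequence that both share. The stretch, read from the GENCODE transcript sequences, is the 3′ end of Brd7-203 from position 477 to 511.
Brd7-203: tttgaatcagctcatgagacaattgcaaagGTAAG
Of its bases, 99.0% lie in exons of protein-coding transcripts, so nearly all reads that fit Brd7-203 also fit the 5′ part of the full-length mRNA. The assignment between them was the authors' estimate, and its accuracy was not tested.

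In the ISWI pair, all of the level belonged to Smarca5 (Snf2h), the ISWI ATPase that is required for early blood and erythroid development. Smarca5 was at a TPM of 51.3 and 66.0, with 15478 and 13911 expected counts. Smarca1 (Snf2l), the form best known from neurons, had 0 counts in both libraries. Smarca5 was therefore at least 2075-fold higher in replicate 1 and at least 1869-fold higher in replicate 2, taking 3 counts per library as the floor for Smarca1. The upper bounds of the authors' interval for Smarca1, TPM of 0.450 and 0.613, would put the folds at 114 and 108. The sequence just before the RefSeq start of each gene is given because the windows differ in CG density. They are 200 bases from RefSeq on GRCm38.p6, both on the minus strand and both free of GENCODE exons, with every CG in capitals. GENCODE starts Smarca1 farther out, at position 47892974, so the Smarca1 window lies inside that gene model. That of Smarca5, chr8:80739510-80739709, has 27 CG and that of Smarca1, chrX:47892664-47892863, has 3.
Smarca5: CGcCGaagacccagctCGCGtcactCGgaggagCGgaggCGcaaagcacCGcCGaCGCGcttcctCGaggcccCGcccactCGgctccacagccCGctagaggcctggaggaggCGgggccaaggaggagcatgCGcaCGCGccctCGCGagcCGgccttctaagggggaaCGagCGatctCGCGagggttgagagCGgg
Smarca1: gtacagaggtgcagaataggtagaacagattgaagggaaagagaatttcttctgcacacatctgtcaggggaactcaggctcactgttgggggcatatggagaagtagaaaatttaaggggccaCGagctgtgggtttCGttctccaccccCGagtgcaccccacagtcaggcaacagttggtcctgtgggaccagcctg
The contrast was not shared by the Smarcd family: in the 250 bases before the start, the abundant Smarcd2 had 4 CG and the undetected Smarcd3 had 38. Methylation and factor binding were not measured in these samples.

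Both remaining SNF2 genes were low. Smarcal1, an annealing helicase that acts at stalled replication forks, was at a TPM of 7.75 and 2.70. Smarcad1, a remodeler linked to heterochromatin and DNA end resection, was at 1.21 and 1.19. Smarcad1 was the detected member nearest the threshold, with a mean of 1.20, and Chd9, with a mean of 1.08, was the nearest member that did not pass.

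In CHD subfamily I, Chd1 and Chd2 could not be ranked by complete coding transcripts. Chd1, which binds trimethylated lysine 4 of histone H3 and acts in transcribed genes, was at a gene TPM of 127 and 265 (196 ± 97.6, SD, n = 2). Chd2, its closest paralog, was at 46.7 and 27.7. By gene TPM Chd1 was 2.71-fold and 9.57-fold higher, a ratio that differed several-fold between the libraries. On complete coding transcripts Chd1 was at 5.31 and 7.17 and Chd2 at 6.27 and 3.42, so Chd2 was higher in replicate 1 and Chd1 in replicate 2.

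Nearly all of the Chd1 level was assigned to Chd1-203, shown for the same reason as the Brd7 transcript. It is a processed transcript of 8 exons and 1372 bases at the 5′ part of the gene, chr17:15705018-15731908 on GRCm38, plus strand. It took 95.6% and 97.3% of the gene's TPM, and 85.6% and 90.8% of its counts, which were 7473 and 11173. A run of 22 bases, in capitals, lies in no exon of a complete coding Chd1 transcript, at positions 1296 to 1317 of the transcript and chr17:15731018-15731039, and 30 bases of shared exon stand on either side.
Chd1-203: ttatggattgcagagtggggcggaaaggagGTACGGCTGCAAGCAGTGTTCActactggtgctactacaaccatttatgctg
All other bases of Chd1-203 are exonic in complete coding transcripts, which makes 98.4% of it shared. The tables do not give reads by position, so how many reads covered the 22 bases was not measured.

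In subfamily II, whose members join NuRD complexes together with histone deacetylases, Chd3 was expressed and the neuronal form Chd5 was not. Chd3 was at a TPM of 131 and 198, and Chd5 had 19 and 14 counts and a TPM of 0.05 and 0.06. The log2 ratio was 11.35 and 11.69 by gene TPM, but its size is uncertain because Chd5 is close to 0: the mean was 11.52 by TPM, 9.38 by posterior mean TPM, 9.62 by expected counts, 8.82 on complete coding transcripts and 7.26 with a pseudocount of 1. When only complete coding transcripts were summed, Chd3 was at 11.5 and 5.35. Chd3-203, which is annotated with a retained intron, took 35.4% and 53.6% of the TPM and 37.5% and 56.8% of the counts.

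Subfamily III was low, with Chd8 first by gene TPM. Chd8, a regulator of beta-catenin target genes, was at a TPM of 12.2 and 10.2, and its relative Chd6 was at 7.83 and 2.32. Chd9 was at 1.28 and 0.87, with 741 and 352 counts, so it was expressed near the threshold and failed it in replicate 2. Chd7, known for its part in neural crest development, had 3 and 0 counts. In replicate 2, Chd8 was at least 527-fold, Chd6 at least 120-fold and Chd9 at least 44.9-fold above the floor of Chd7. Against the upper bound of the authors' interval for Chd7, a TPM of 0.368, the folds were 27.7, 6.30 and 2.36. On complete coding transcripts Chd8 was at 3.84 and 1.83 and Chd6 at 1.87 and 1.45. The Chd8 lead over Chd6 was 1.56-fold and 4.40-fold by gene TPM, and 2.05-fold and 1.26-fold on that measure. The complete coding values of Chd8 are uncertain, because 58.3% and 66.8% of its TPM lay on Chd8-209, classed as incomplete. The later annotation gives Chd8-209 a length of 3094 bases, but it was quantified with an effective length of 6941 in replicate 1. The class thus belongs to a different model from the one quantified. The leading transcript of Chd6 changed from Chd6-203, of 675 bases with an incomplete coding sequence, in replicate 1 to the full-length Chd6-201 in replicate 2.

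All 7 INO80 genes were detected, over a wide range of levels. The ATPase gene Ino80 itself was low, at a TPM of 6.36 and 5.99, and so were the subunit genes Ino80c, at 5.41 and 4.22, and Ino80d, at 3.75 and 5.01. The member with the highest gene TPM was the subunit gene Ino80e, at 707 and 925 (816 ± 154, SD, n = 2), with 0.77% of protein-coding genes above it. Ino80b was at 172 and 269 (221 ± 68.8, SD, n = 2). So the motor gene stood 111-fold and 154-fold below Ino80e and about level with its low subunits. Counting only complete coding transcripts, Ino80e was at 371 and 393 and Ino80b at 161 and 123, still far above Ino80, and Ruvbl2, at 409 and 399, was then the highest member. Ino80e-208, a processed transcript of 719 bases, held 42.6% and 54.0% of the Ino80e TPM but 19.4% and 27.7% of the counts.

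Several INO80 genes share exon bases with neighbours on the opposite strand, and the sources used here do not give the strand setting of the counting. Ino80e overlaps Hirip3 over 150 bases, with 10637 and 4249 counts in Hirip3 against 44323 and 36555 in Ino80e. Ruvbl2 overlaps Gys1 over 310 bases, with 5245 and 3149 counts in Gys1. Over all 39 members, 16 had exon overlap on the opposite strand and 4 on the same strand. The share over all protein-coding genes was not computed, so these counts do not set the members apart. The same-strand overlap with most counts was that of Chd2 with the processed transcript gene 1810026B05Rik, over 2628 bases and with 862 and 1022 counts in that gene.

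The AAA+ pair was unequal. Ruvbl2 was at a TPM of 411 and 400 (405 ± 7.78, SD, n = 2), and Ruvbl1 was at 30.5 and 14.1 (22.3 ± 11.6, SD, n = 2). Their proteins are known to form mixed hexamers that serve INO80, SRCAP and TIP60 complexes. Ruvbl2 mRNA was 13.5-fold and 28.3-fold above Ruvbl1 mRNA, and Ruvbl2 held 93.1% and 96.6% of the pair's TPM. Both rested almost wholly on complete coding transcripts, with at least 99.7% of TPM, so the gap was the same on that measure.

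Of 21 paralog pairs, 14 had at least 10 counts for each gene in each library, and in all 14 the same gene was higher in both libraries by gene TPM. On the log2 scale the mean ratios ran from -4.29 ± 0.76 (SD, n = 2) for Ruvbl1 over Ruvbl2 to 11.52 ± 0.24 for Chd3 over Chd5. The SDs were 0.12 for Smarca4 over Smarca2, 0.15 for Arid1a over Arid1b and 0.17 for Brd7 over Brd9, small beside mean ratios of 4.14, 1.88 and 6.09. They were larger for Chd1 over Chd2, at 1.29, and for Chd6 over Chd8, at 1.06, where the mean ratios were 2.35 and -1.39. On complete coding transcripts 13 of the 14 pairs kept one leading gene in both libraries, Chd1 over Chd2 being the exception. The lead passed to the other gene in Dpf2 over Dpf3, from 1.83 by gene TPM to -0.50.

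The authors' intervals for TPM, which lie around the posterior mean and have no stated level, were compared within pairs. That of Smarca4 was 240 to 244 in replicate 1 and 309 to 315 in replicate 2, while the plain TPM of 246 and 319 lay just above each. For Smarca2 it was 13.5 to 17.5 and 16.8 to 19.1, which overlap. The intervals of Smarcc1, 115 to 118 and 162 to 166, stayed below those of Smarcc2 in the same library, 138 to 141 and 180 to 184. For Dpf1 they were 76.2 to 82.6 and 69.8 to 77.4, above those of Dpf2, 61.3 to 64.5 and 39.4 to 42.5. The intervals rest on the same length scaling as TPM and do not cover the spread between libraries.

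**Figure D3:**
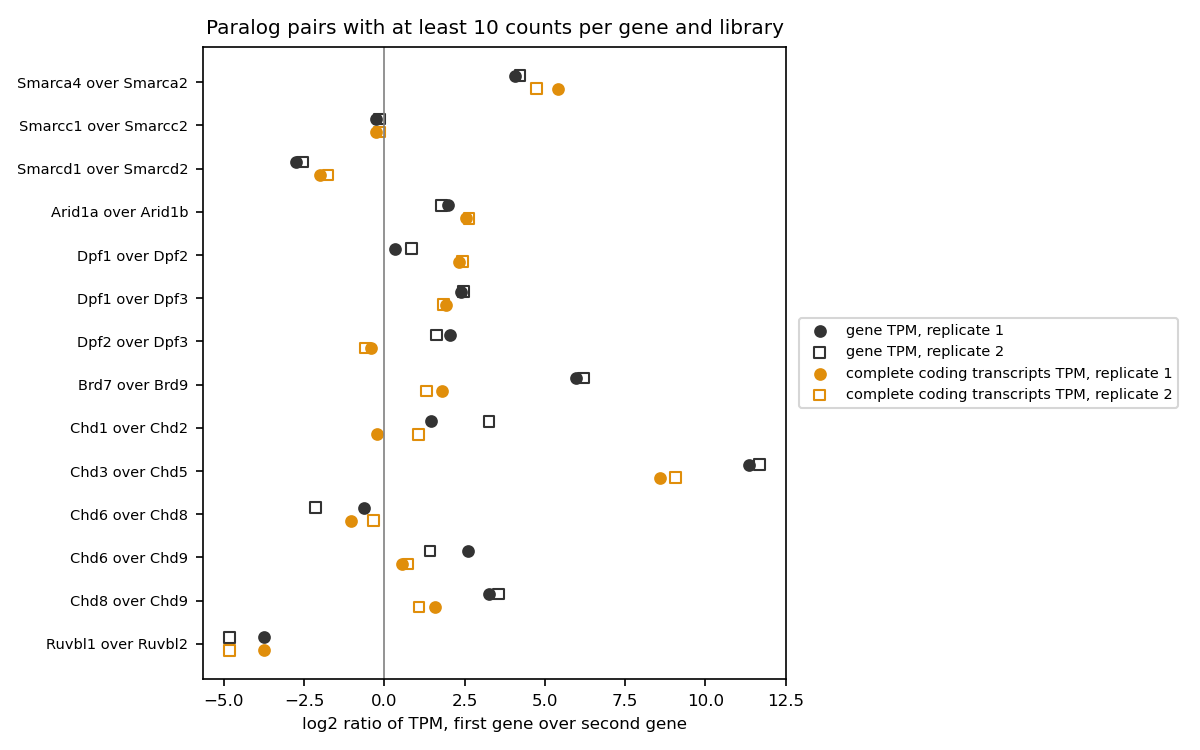
Log2 ratio of TPM for 14 paralog pairs, first gene over second gene, with gene TPM in black and complete coding transcripts in orange, filled circles for replicate 1 and open squares for replicate 2. Orange and black lie close for Smarcc1 over Smarcc2 and Ruvbl1 over Ruvbl2, move apart for Brd7 over Brd9, and fall on opposite sides of 0 for Dpf2 over Dpf3.

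The libraries were compared with each other on TMM-scaled expected counts, over genes with at least 10 counts, to see which members varied most within the group. Among 35 members tested, 5 were at least 1.5-fold higher in replicate 2, against 11.4% of all protein-coding genes tested, and 3 were at least 1.5-fold higher in replicate 1, against 19.4%. Either way, 8 of 35 passed the fold, which is no more than the background of 30.8%. The 5 that were higher in replicate 2 were Chd1, with a log2 ratio of 1.11, Smarcb1, with 0.72, Chd3, with 0.70, Ino80b, with 0.65, and Smarcc1, with 0.59. The 3 that were higher in replicate 1 were Smarcal1, with a log2 ratio of -1.45, Ruvbl1, with -1.01, and Chd2, with -0.68. The median log2 ratio was 0.01 over the members and -0.03 over all genes tested. The split changed with scaling: by total counts, 1 member was higher in replicate 2 and 6 in replicate 1, with the median of all genes at -0.23. By deposited TPM, which also carries each library's own effective lengths, it was 4 and 6, with the median at -0.10.

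The assignment of reads to transcripts also differed between the libraries in several members, and ratios on complete coding transcripts could differ in sign from those on gene counts. For Chd3 the log2 ratio was 0.70 by counts but -1.11 on complete coding transcripts, and for Ino80b it was 0.65 and -0.38. In Ino80b, Ino80b-203, annotated for nonsense-mediated decay, had 666 counts in replicate 1 and 6013 in replicate 2, or 5.73% and 50.4% of the gene's counts. The complete coding Ino80b-202 had 10959 and 5918 counts. In Smarcb1 the share of TPM on Smarcb1-204, also annotated for nonsense-mediated decay, was 43.2% and 60.6%. Over the 29 detected members with 2 or more transcripts, 23 had the same leading transcript in both libraries, against 83.5% of such protein-coding genes. The 6 that did not were Smarcb1, Dpf1, Chd2, Chd6, Ino80b and Ino80d. Chd2 led with the incomplete Chd2-205 in replicate 1 and the processed transcript Chd2-202 in replicate 2, while by counts its full-length Chd2-203 led in both libraries with 76.5% and 71.2%. Ino80d led with Ino80d-206 in replicate 1 and the incomplete Ino80d-203 in replicate 2, while by counts Ino80d-206 led in both with 88.2% and 71.0%. Chd6-201 likewise led Chd6 by counts in both, with 81.8% and 95.2%, so by counts 26 of 29 members had the same leading transcript.

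**Figure D4:**
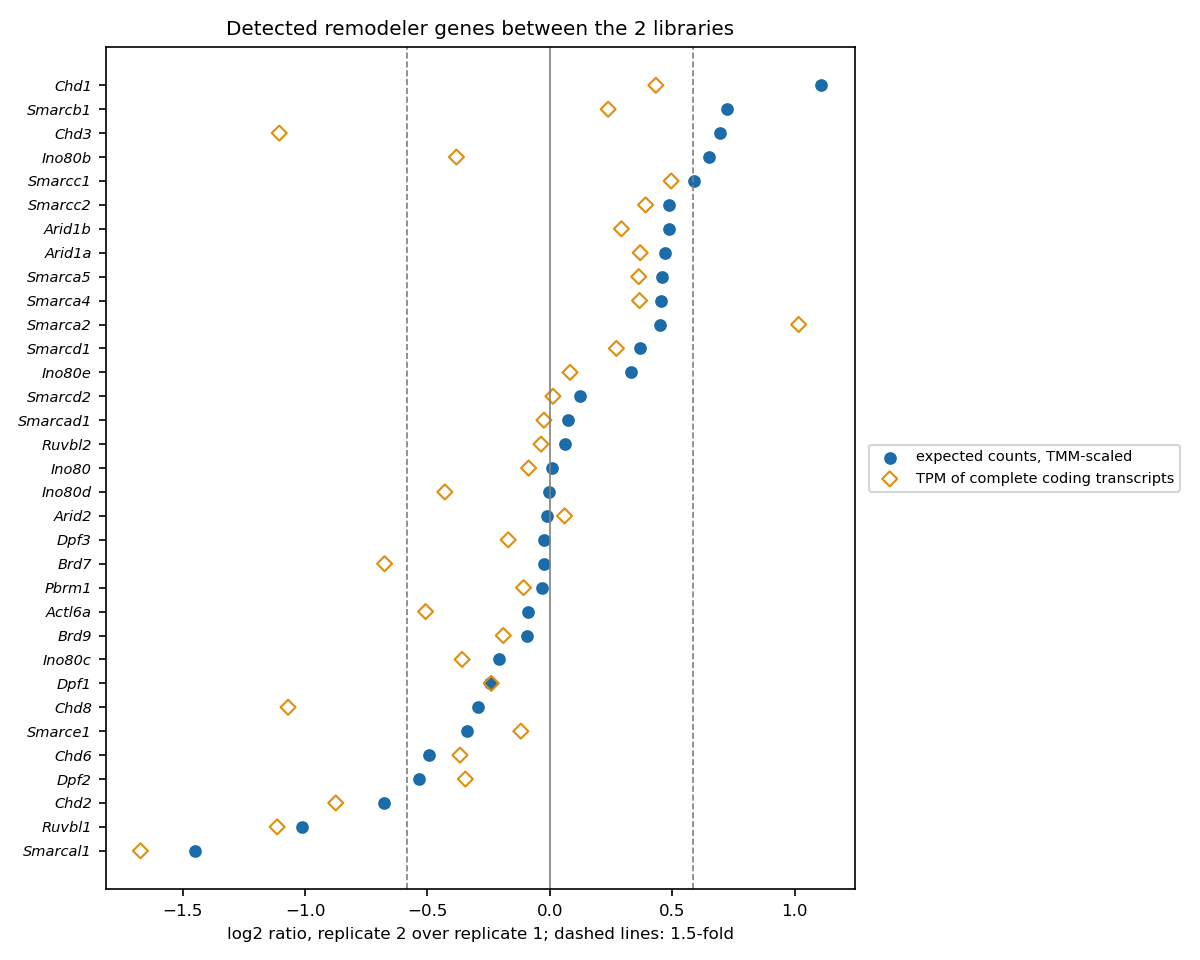
Log2 ratio of replicate 2 over replicate 1 for the 33 detected members, by TMM-scaled expected counts (blue circles) and by TPM of complete coding transcripts (orange diamonds), with dashed lines at 1.5-fold. The measures nearly coincide for Ruvbl2 and Dpf1 and fall on opposite sides of 0 for Chd3 and Ino80b.

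Most remodeler promoters were rich in CG, a feature that choosing the genes by symbol did not use. RefSeq promoters were matched for 31 of 39 members. In the 250 bases before the start, the median number of CG was 20 over the members, 10 over all 16317 protein-coding genes with a promoter, 17 over the detected ones and 4.5 over the others. The member median was nearer to that of detected genes than to that of all genes, in a set that was mostly detected. It was 20.5 over the 26 detected members and 16 over the 5 that were not detected. The lowest of the members was Smarcd2, with 4, although it was abundant, and the highest was Smarcc2, with 40. Among members that were not detected, Smarcd3 had 38 and Smarca1 had 6, so a low level went with either. The GATA motif, searched as AGATAA and TGATAA on both strands, occurred in 2 of 31 member windows, those of Smarcd3 and Arid1a, which is 6.45% against 14.4% of all windows and 8.16% of those of detected genes.

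The partner genes of these complexes, taken from lists of known subunits, were nearly all expressed. Of 44 partners, 43 were detected, against 38.3% of all protein-coding genes. The median TPM over the 44 was 40.1 and 33.6, against 21.2 and 19.6 over detected protein-coding genes. Of the 8 SWI/SNF partners, all were detected, and the highest was Phf10, a PBAF subunit, at 324 and 236. All 9 ISWI partners were detected, led by Bptf, the large subunit of NURF, at 119 and 246. The 7 INO80 partners were led by Uchl5, a deubiquitinase, at 262 and 183. Of 11 SRCAP and TIP60 genes, 10 were detected, led by Vps72, which binds the histone variant H2A.Z, at 458 and 509. Actr6, an actin-related SRCAP subunit, was the 1 partner not detected, at 0.51 and 0.13. The 9 other SNF2 ATPases had the lowest median, 7.52 and 6.83, and were led by Atrx at 22.8 and 15.4. Between the libraries, 5 of 44 partners were at least 1.5-fold higher in replicate 2, against 11.4% of all genes tested, and 5 in replicate 1, against 19.4%.

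Markers of the labelled cell type were present: 8 of 9 erythroid markers were detected, with Hbb-bs at a TPM of 11771 and 6656 and Klf1 at 984 and 1394, while Slc4a1, a late membrane protein, was at 0.52 and 0.36. Gata1, at 1251 and 872, is on that list but may reflect the transgene, which was not tested. Of the other lists, 2 of 5 megakaryocyte markers (Gp1ba and Itga2b), 0 of 5 myeloid, 0 of 5 lymphoid, 1 of 6 neuron and 0 of 7 heart and skeletal muscle markers were detected. The summed TPM of a list was at most 1.59 for the neuron markers and 0.17 for the muscle markers. So the levels of Dpf1 and Dpf3 stood beside defining markers of neurons and muscle near 0. Smarcd3, Actl6b, Smarca1 and Chd5, other forms known from those tissues, were not detected.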

How the data were processed

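PolyA RNA of 2 libraries of 1 group was measured. Per the notes deposited with the files, values were derived from transcriptome alignments on mm10 with GENCODE M4, for each library alone. For the aligner, the quantifier and the use of strand: not given in the sources used here. Deposited by the authors were expected counts per gene and transcript, estimates that need not be whole. The deposited TPM were scaled by effective length to 1 total per library. Posterior mean TPM, used here as a score-like alternative estimate, came from the authors' tables too. So did the bounds of an interval for TPM, whose level those tables do not state. Transcript percent values in the authors' tables only served to check shares recomputed from TPM. Symbols and transcript classes came from GENCODE M21 on GRCm38, the same assembly with a later annotation, and 42462 of 43346 gene rows matched.

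Complete coding transcripts were those of the protein-coding class with neither end tagged as not found. Levels are mean ± SD (n = 2), and paralogs were compared by TPM. Expected counts were rounded to whole numbers for TMM scaling (edgeR 4.0.16, factors 1.07 and 0.934) and for the DESeq2 1.42.0 size factors used as an alternative. Log2 ratios between libraries carried a prior count of 0.5. A floor is the TPM that 3 counts in a library would give, and covers counting error only. The comparison of libraries was tried on simulated gene counts with counting error only and known fold changes. That simulation did not cover paralog ratios in TPM or transcript shares. Named were all members of paralog families, the 5 highest others, members not detected, past the 1.5-fold or with a differing leading transcript, and the highest and undetected partners. The members, lists and alternatives were chosen with earlier results of these data known. Ino80c and other remaining members, and Chpf2, Hirip3, Gys1 and 1810026B05Rik, named for exon overlap, were added after their values were seen.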

Additional observations from a re-analysis of the deposited data

Results flagged for a closer look

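A pair of genes whose names derive from members but which are not protein-coding carried signal and entered none of the comparisons. Ino80dos, a lincRNA that overlaps Ino80d exons over 431 bases on the opposite strand, was at a TPM of 3.28 and 3.29 (mean 3.285), with 180 and 127 expected counts. Ino80d itself was at 3.75 and 5.01. Smarce1-ps1, a processed pseudogene of Smarce1, was at a TPM of 0.07 and 0.15 (mean 0.11), with 3.09 and 5.09 counts. The pseudogene Smarca5-ps had 0 counts in both libraries.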

How the results depend on the processing

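The alternatives on complete coding transcripts were chosen after seeing the data. The number of detected members lay between 32 and 34 under every alternative run, and between 33 and 34 when each library was left out in turn. The median TPM of the members, 26.3 as the mean of the libraries, was 25.9 with posterior mean TPM, 14.0 on protein-coding transcripts and 10.1 on complete coding transcripts, and between 26.1 and 26.5 without each library. With a fold of at least 2, 3 members differed between the libraries. The split of members higher in replicate 2 against replicate 1 was 6 and 6 with no count filter and 1 and 7 by TPM of complete coding transcripts, where the median of all genes was -0.17. The members added without the filter were Smarca1, on the side of replicate 2, and Smarcd3, Actl6b and Chd7, on that of replicate 1. Smarca1 had 0 counts in both libraries, so its log2 ratio of 0.61 came from the prior count and library sizes alone. The other added members had 3 counts or fewer, so the 6 and 6 split is no result about levels. Over 112 alternative values of the 14 pair ratios, 77 moved by less than the SD over the replicates, 31 moved by more and kept their sign, and 4 changed sign. The 77 include 14 values without replicate 1 and 14 without replicate 2, which say nothing about stability. With 2 libraries, leaving 1 out always moves the mean by less than the SD. On complete coding transcripts 3 of 14 ratios moved by less, 10 by more, and 1 changed sign. The 4 values that changed sign were Smarcc1 over Smarcc2 by expected counts without length scaling (log2 ratio 0.0019), Dpf2 over Dpf3 on protein-coding (-0.52) and complete coding (-0.50) transcripts, and Chd1 over Chd2 on protein-coding transcripts (-1.71). No paired analysis was possible because there was 1 group. Limits were the lack of a control group, 2 libraries of perhaps 1 culture, and an annotation of transcript classes later than the one used for quantification. Smarcd3, Actl6b, Smarca1 and Chd7 had 3 counts or fewer per library, so their levels could only be bounded, and the effect of depth was not tested.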
